A study of Mus musculus with 18 samples.

Results

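The genes described are 10 co-stimulatory and checkpoint molecules, Cd80, Cd86, Icosl, Cd274, Pdcd1lg2, Tnfsf4, Tnfsf9, Cd40, Cd83 and Cd82. They were matched by gene symbol among the 20298 genes of the table, and each of them was found once. The set is wider than the word ligand: Cd40 encodes a receptor and Cd82 a tetraspanin, and both were kept as listed. Cd80, Cd82, Cd83 and Cd86 were singled out by the study from these same libraries, so their direction here is not independent evidence.

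The measurements are RNA-seq levels in Ly6C+ CCR2+ monocytes of C57BL/6 mice (for the DKI mice the study's methods give C57BL/6J), either wild type (WT) or carrying knock-in mutations of the N-domains of both Stat5a and Stat5b (double knock-in, DKI), in every cell of the animal. The mutated STAT5 proteins still pair into dimers but cannot join into tetramers. Cells were taken untreated (day 0) or after 3 or 6 days in culture with 20 ng/ml GM-CSF, a cytokine that signals through STAT5 and turns monocytes into monocyte-derived dendritic cells. Each of the 6 groups held 3 libraries, numbered by replicate, from 3 independent experiments. The labels do not state the age of the mice or how many animals stand behind a library. The monocytes were enriched by depletion of other cells and not sorted for a surface marker, so a lower level can mean fewer cells of a kind or less RNA in each cell, and bulk RNA cannot tell these apart.

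T cells need a second signal beside antigen, and antigen-presenting cells give it through surface molecules of the B7 and TNF families. CD80 and CD86 bind CD28, which activates the T cell, and CTLA-4, which restrains it. PD-L1 (Cd274) and PD-L2 (Pdcd1lg2) bind the inhibitory receptor PD-1, ICOS ligand (Icosl) binds ICOS, and OX40 ligand (Tnfsf4) and 4-1BB ligand (Tnfsf9) bind OX40 and 4-1BB. Activated T cells in turn engage CD40 on the presenting cell. CD83 marks mature dendritic cells and keeps CD86 and MHC class II on the surface, and dendritic cells are known for raising many of these molecules as they mature.

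The labels give liver as the tissue and the series design gives bone marrow. The hepatocyte genes Alb, Ttr and Serpina1a and the Kupffer cell gene Clec4f were the check on this, and Alb, Ttr and Serpina1a were at 0 RPKM in all 18 libraries. Clec4f was at 0 RPKM in all day 0 and day 3 libraries and in the WT day 6 libraries. Cd5l, a further gene of the Kupffer cell list, was at up to 0.164 RPKM on day 0 and at 0.237 to 29.9 RPKM in the cultures, highest in replicate 3 of DKI on day 6. Library depth, recovered from the values themselves, ran from 29.5 M to 43.2 M reads. Outside Tnfsf4 and Pdcd1lg2 on day 0, each value of the 10 genes rested on at least 88 reads. Stat5a mRNA was at 30.2 to 58.0 RPKM in WT and 9.37 to 14.4 RPKM in DKI on day 3, and at 27.2 to 62.4 RPKM in WT and 9.22 to 14.4 RPKM in DKI on day 6. Stat5b was at 17.1 to 25.2 and 12.6 to 16.5 RPKM on day 3 and at 18.7 to 29.0 and 12.8 to 14.4 RPKM on day 6, so both genes were lower in all DKI cultures. Values per gene cannot show the knock-in mutations, and the genotype labels were not checked by them. The names of the replicate 1 cultures, of either genotype and day, hold an earlier year than those of all other libraries. Markers of other cells moved with day and genotype. The summed RPKM of 6 dendritic cell markers was 20.6 to 38.8 in the day 0 libraries, 4968 to 7519 in WT and 666 to 2282 in DKI on day 3, and 5066 to 8046 in WT and 1074 to 3967 in DKI on day 6. H2-Ab1, an MHC class II gene, made up 73.5% to 92.6% of this sum in the cultures. Without it the other 5 summed to 556 to 880 in WT and 52.3 to 331 in DKI on day 3, and to 871 to 1358 in WT and 172 to 404 in DKI on day 6. Flt3 of the same list was at 4.62 to 7.31 RPKM in the day 0 libraries and at 0.457 to 1.87 RPKM in those of day 3. It passed the filter (a mean above 2 RPKM in a group) through day 0 only, so its fall is a description. Between the genotypes, 2 of the 6 (Zbtb46 and Ccr7) were called lower in DKI on each of days 3 and 6, against 4.21% and 4.82% of all genes. The summed RPKM of 6 macrophage markers went the other way, with 389 to 933 in WT and 1785 to 4203 in DKI on day 3, and 505 to 1658 in WT and 1825 to 4733 in DKI on day 6. So did 6 monocyte markers, with 800 to 1192 in WT and 1468 to 2466 in DKI on day 3, and 631 to 1126 in WT and 1382 to 1737 in DKI on day 6, after 2581 to 3567 over both genotypes on day 0. Of these 6 monocyte markers none was called between the genotypes in culture, and Ccr2 had the opposite sign to the other 5 (−0.41 and −0.50 on the log2 scale on days 3 and 6). Of the macrophage markers 3 were called higher in DKI on day 3 and 2 on day 6, against 3.21% and 2.72% of all genes. The sum of 7 neutrophil and precursor markers was 1495 to 2621 on day 0, and on day 3 it was 170, 2603 and 437 in WT, where replicate 2 stood apart, and 1170 to 2366 in DKI. On day 6 it was 112 to 853 in WT and 499 to 1797 in DKI. For 4 eosinophil, basophil and mast cell markers the sum was 150 to 482 on day 0 and 1.62 to 121 in the cultures. For 4 NK cell markers it was 3.75 to 12.9 in WT and 0.615 to 3.02 in DKI on day 3, and 5.73 to 19.1 in WT and 1.42 to 4.60 in DKI on day 6, most of it Klrk1, while Ncr1, Gzma and Klrb1c stayed at or below 0.337 RPKM in all cultures. For 6 B cell markers it was 0.364 to 0.473 in WT and 1.26 to 7.10 in DKI on day 3, and 0.196 to 0.780 in WT and 1.21 to 3.53 in DKI on day 6, and in DKI most of it was Cd79b. The part of these shifts in the results on the 10 genes was not tested.

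Of the 10 genes, 5 have an entry in the RefSeq promoter table (GRCm38.p6), namely Cd80, Cd274, Pdcd1lg2, Icosl and Cd82. Cd274 and Pdcd1lg2 are shown because they lie next to each other on chromosome 19, with 22.8 kb between the end of Cd274 (29362107 to 29388095) and the start of Pdcd1lg2 (29410919 to 29472927), and because Pdcd1lg2 was called between the genotypes on both days of culture and Cd274 on neither. Cd80 is shown because it was called lower in DKI on both days of culture. Each sequence is the 250 bases before the annotated start on the plus strand, in lower case, with matches to the motifs searched in capitals. The windows are chr19:29367188-29367437 for Cd274, chr19:29410669-29410918 for Pdcd1lg2 and chr16:38458683-38458932 for Cd80. For Cd274 and Cd80 this start lies inside the span of the gene.
Cd274: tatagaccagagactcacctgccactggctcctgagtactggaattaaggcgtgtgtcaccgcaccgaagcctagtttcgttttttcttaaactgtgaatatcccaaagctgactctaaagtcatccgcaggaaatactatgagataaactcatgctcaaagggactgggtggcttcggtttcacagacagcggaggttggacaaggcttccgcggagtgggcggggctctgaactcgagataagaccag
Pdcd1lg2: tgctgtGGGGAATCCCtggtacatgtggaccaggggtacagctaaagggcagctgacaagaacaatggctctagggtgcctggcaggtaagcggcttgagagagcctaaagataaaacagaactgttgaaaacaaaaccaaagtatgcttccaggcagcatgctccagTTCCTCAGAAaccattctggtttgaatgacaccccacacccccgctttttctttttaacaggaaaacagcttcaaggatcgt
Cd80: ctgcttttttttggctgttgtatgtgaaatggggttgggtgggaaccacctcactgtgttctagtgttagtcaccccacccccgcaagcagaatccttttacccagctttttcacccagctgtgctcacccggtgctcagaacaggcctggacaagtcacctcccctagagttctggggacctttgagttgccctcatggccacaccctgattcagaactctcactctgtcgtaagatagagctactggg
The motifs searched on both strands were the GAS motif that STAT proteins bind (TTC and GAA with 3 or with 4 bases of any kind between), the core of the interferon-stimulated response element (GAAA, 2 bases of any kind and GAAA again) and the kappaB consensus of NF-kappaB. The Pdcd1lg2 window held a kappaB match at bases −244 to −235 and a GAS match with the 4-base spacer at bases −82 to −73, counted from the start. The Icosl window (chr10:78069118-78069367) held a kappaB match at bases −111 to −102. The windows of Cd274, Cd80 and the 4 annotated starts of Cd82 held no match, which says only that these letters are not in these windows. Among 32817 promoters of the same length, 7.01% held the GAS motif with 3 bases between, 5.85% that with 4 bases, 2.97% the interferon core and 7.25% the kappaB consensus. A match is a description of the letters, not a binding site.

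Before culture the levels of most of the 10 genes followed the replicate in both genotypes. None of the 8 genes that passed the filter (a mean above 2 RPKM in a group) was called on day 0, where 0% of the 9179 genes fitted were called. Called means an adjusted p (Benjamini-Hochberg) below 0.05 together with a change of more than 1.5-fold, in limma on log2(RPKM + 1). Without adjustment, 44 of all genes and 0 of the 8 had p under 0.05, and the count under limma-voom on recovered reads was 0 as well. Cd86 was the clearest case of a shift by replicate, with 121, 102 and 23.2 RPKM in the WT libraries and 121, 103 and 25.5 RPKM in the DKI libraries of replicates 1, 2 and 3. Replicate 3 was low in both genotypes. Tnfsf9 was low in replicate 2 instead, with 18.3, 5.32 and 17.5 RPKM in WT and 20.5, 5.03 and 19.7 RPKM in DKI. Cd40, Cd82, Cd83, Cd274 and Icosl were highest in replicate 1 of both genotypes, and Cd80 was highest in replicate 2 of both. The summed RPKM of 6 B cell markers differed by replicate too, with 3.04, 8.48 and 14.0 in WT and 3.36, 8.22 and 12.03 in DKI. Its part in the replicate shift of Cd86 and Tnfsf9 was not tested. Cd83 was lower in the DKI library of all 3 same-numbered pairs on day 0, at 129, 81.9 and 71.4 RPKM in WT and 127, 65.9 and 56.4 RPKM in DKI, and the ranges of the genotypes overlapped. Of the 9179 genes fitted, 1132 were lower and 922 higher in the DKI library of all 3 pairs. Of the 10, Tnfsf4 was higher in RPKM in all 3, at 1 to 4 reads, and in pair 3 each library held 1 read. The groups did not overlap for 0 of the 10 genes, against 1.03% of all genes.

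**Figure D1:**
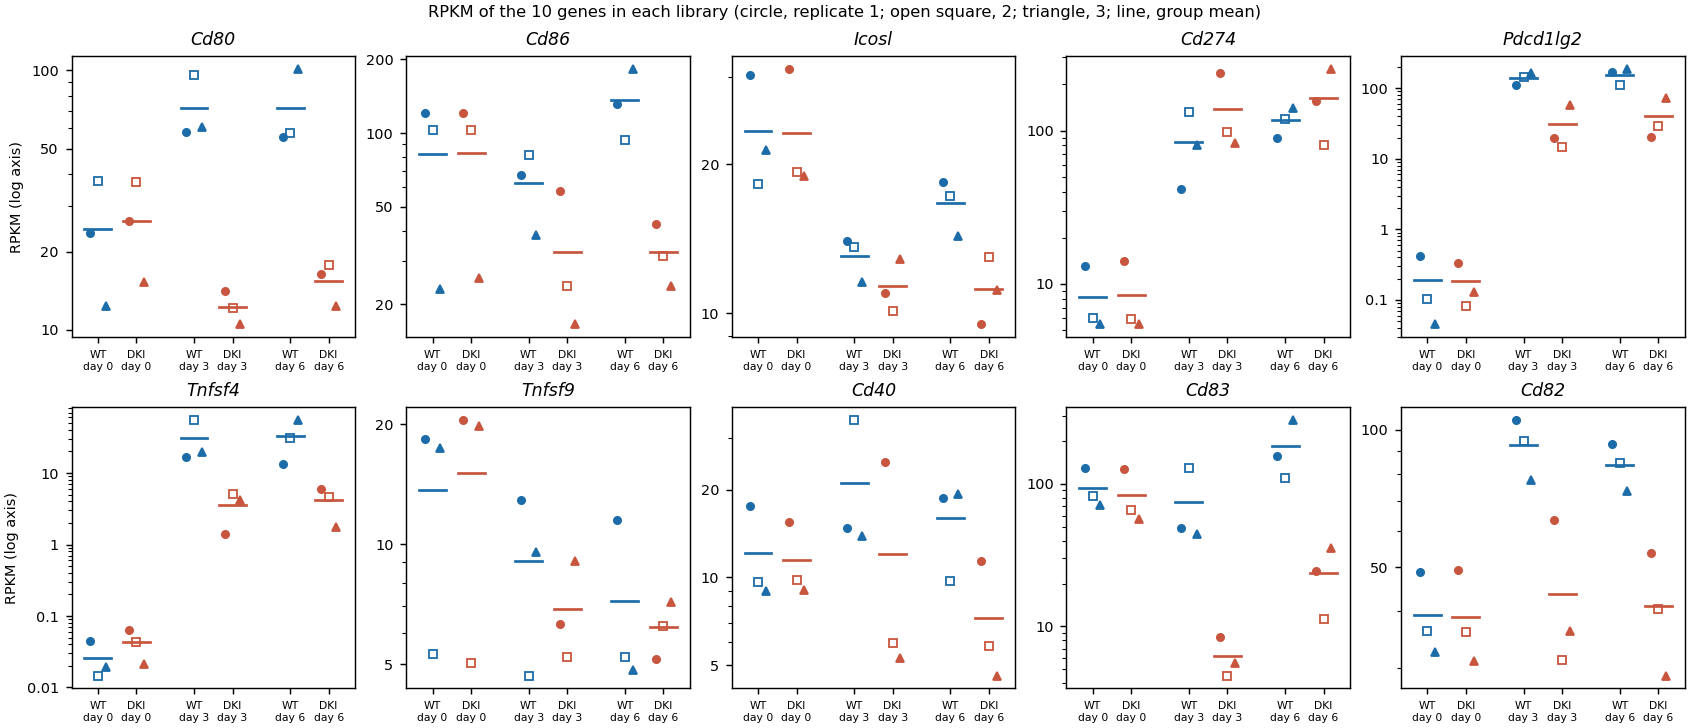
RPKM of the 10 genes (log axis) in each of the 18 libraries, by genotype and day. Symbols stand for the replicates, and the line is the mean of 3 libraries. Pdcd1lg2 and Tnfsf4 sat below 0.5 RPKM in all day 0 libraries and above 1 RPKM in all cultures.

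In GM-CSF culture of WT cells, the PD-1 ligands and OX40 ligand rose most. Of the 10 genes, 6 were called between day 0 and day 3 in WT, 5 higher (Cd80, Cd82, Cd274, Pdcd1lg2 and Tnfsf4) and 1 lower (Icosl). Over all genes 43.1% were called, 20.3% higher and 22.8% lower. In DKI, 5 of the 10 were called, 3 higher (Cd274, Pdcd1lg2 and Tnfsf4) and 2 lower (Cd83 and Icosl), where 34.2% of all genes were called, 13.1% higher and 21.1% lower. Pdcd1lg2 and Tnfsf4 passed the filter through day 3 only, so their place in these counts is a description. The ranges of day 0 and day 3 were apart for 6 of the 10 in WT and 6 in DKI, against 61% and 55.2% of all genes. The median log2 change of the 10 was 0.96 in WT and −0.53 in DKI, and that of all genes fitted was −0.05 and −0.16. The day 0 libraries are in 1 group per genotype and time in culture was not separated from GM-CSF, since no culture without the cytokine was measured.

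Pdcd1lg2, which encodes the PD-1 ligand PD-L2, was nearly silent in monocytes. It had 61, 15 and 5 reads in the WT and 45, 12 and 13 reads in the DKI libraries of day 0, equal to at most 0.425 RPKM. On day 3 it stood at 109, 144 and 166 RPKM in WT and 19.9, 14.9 and 58.6 RPKM in DKI. Reads summed over the group and scaled to depth were 685 times those of day 0 in WT (95% exact interval 551 to 863) and 158 times in DKI (125 to 203), and the intervals cover counting error only. All cultures of both genotypes lay above all day 0 libraries.

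Tnfsf4, the gene of OX40 ligand, had 3, 1 and 1 reads in WT and 4, 3 and 1 reads in DKI on day 0, at most 0.064 RPKM. On day 3 it was at 16.6, 55.2 and 19.4 RPKM in WT and at 1.39, 5.12 and 4.23 RPKM in DKI. The ratio to day 0 of the summed reads was 1177 in WT (95% exact interval 504 to 3627) and 79.2 in DKI (40.0 to 184). With so few reads on day 0 the fitted changes of 4.73 and 2.03 on the log2(RPKM + 1) scale depend on the added 1 and are much smaller than these ratios.

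Cd274, the gene of PD-L1, rose in both genotypes. It was at 13.1, 5.95 and 5.43 RPKM in WT and 14.1, 5.91 and 5.45 RPKM in DKI on day 0, and at 41.4, 132 and 81.0 RPKM in WT and 236, 97.3 and 82.3 RPKM in DKI on day 3. The log2 change was 3.17 ± 0.47 in WT (SE, n = 3 and 3, adjusted p = 0.00201, limma) and 3.83 ± 0.49 in DKI (adjusted p = 0.00323). The DKI library of replicate 1 on day 3 held the highest Cd274 value of day 3.

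Icosl, the ligand of ICOS, fell in both genotypes. Its values were 30.4, 18.3 and 21.4 RPKM in WT and 31.2, 19.3 and 19.0 RPKM in DKI on day 0, against 14.0, 13.6 and 11.6 RPKM in WT and 11.0, 10.1 and 12.9 RPKM in DKI on day 3. The log2 change was −0.77 ± 0.21 in WT (SE, adjusted p = 0.0203, limma) and −0.94 ± 0.23 in DKI (adjusted p = 0.0222). The WT call was lost without replicate 1 of day 0 (log2 change −0.57, under the fold limit) or replicate 3 of day 3 (adjusted p = 0.0743), and the DKI call without replicate 2 of day 3 (adjusted p = 0.0681).

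Cd80 and Cd82 rose in WT. The log2 change from day 0 to day 3 was 1.60 ± 0.40 for Cd80 (SE, adjusted p = 0.0149, limma) and 1.23 ± 0.20 for Cd82 (adjusted p = 0.00287) in WT, whereas in DKI it was −0.96 ± 0.32 for Cd80 (adjusted p = 0.0546) and 0.12 ± 0.31 for Cd82 (adjusted p = 0.773). Cd83 was called lower in DKI, with a log2 change of −3.50 ± 0.35 (adjusted p = 0.00178), and in WT its change was −0.47 ± 0.43 (adjusted p = 0.403). Cd40, Cd86 and Tnfsf9 were called in neither genotype. Single libraries decided some of this: in WT, Cd83 was called lower without replicate 2 of day 3 (adjusted p = 0.0385), and in DKI, Cd40 was called lower without replicate 1 of day 3 (adjusted p = 0.0447), Cd80 and Cd86 without replicate 3 of day 0 (adjusted p = 0.0192 and 0.0481) and Tnfsf9 without replicate 2 of day 0 (adjusted p = 0.0221).

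Whether the genotype effect on day 3 differed from that on day 0 was taken from the interaction term over 12 libraries. It was called for 3 of the 10 genes, all lower in DKI, against 2.91% of all genes (1.7% lower and 1.2% higher). The 3 were Cd83 (−3.03 ± 0.62 on the log2 scale, adjusted p = 0.0281, limma), Cd80 (−2.57 ± 0.56, adjusted p = 0.0355) and Tnfsf4 (−2.70 ± 0.61). The value of Pdcd1lg2 was −2.36 ± 0.56. Tnfsf4 and Pdcd1lg2 entered this fit through day 3 only, so their values are a description and no test is given for them. The place of Tnfsf4 in the count of 3 is a description too. With the replicate number as a block within each day, Cd82 was called as well (adjusted p = 0.0323, limma). The calls of Cd80 and Cd83 were lost in limma-voom on recovered reads or without the filter on low genes.

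On day 3 of culture, 4 of the 10 genes were called between the genotypes, and all 4 were lower in DKI: Cd80, Cd83, Pdcd1lg2 and Tnfsf4. On day 6 there were 5, the same 4 genes with Cd86 added, again all lower. Of all genes 7.42% were called on day 3 (4.21% lower, 3.21% higher) and 7.54% on day 6 (4.82% lower, 2.72% higher). The median log2 difference of the 10 was −1.08 on day 3 and −1.54 on day 6, and that of all genes fitted was −0.11 and −0.17. WT and DKI ranges were apart for 5 of the 10 on day 3 and for 7 on day 6, against 36.3% and 37.2% of all genes. The DKI library was the lower one in all 3 same-numbered pairs for 6 genes on day 3 and 8 on day 6, against 36.5% and 45.3% of all genes. It was the higher one in all 3 pairs for 0 of the 10 on either day, against 20.9% and 18.4%.

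**Figure D2:**
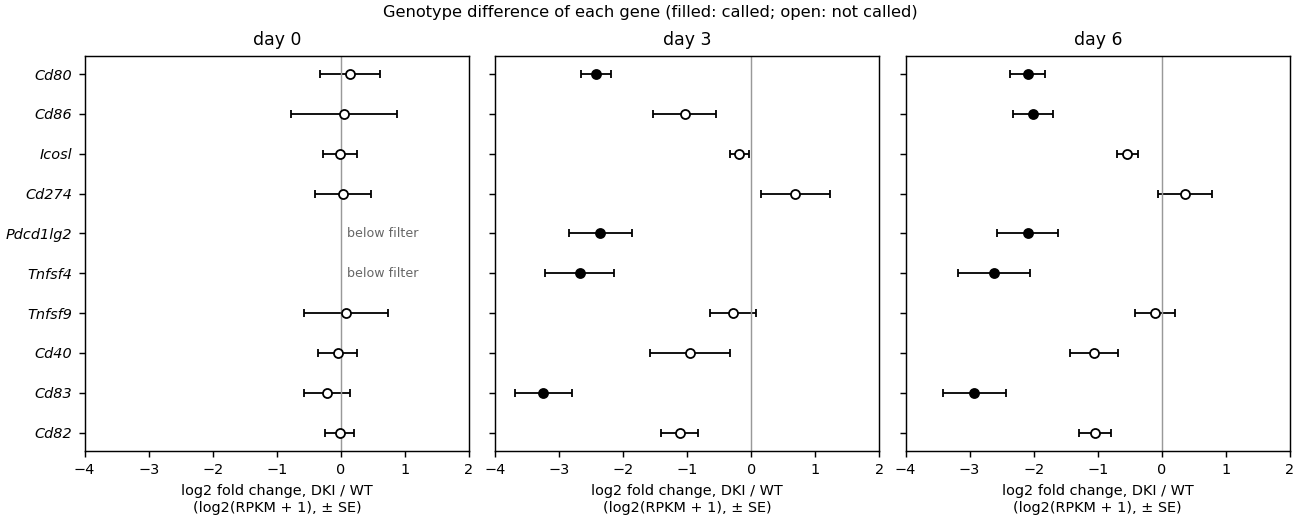
Log2 difference between DKI and WT for each of the 10 genes on days 0, 3 and 6, as points with the standard error (3 libraries in each genotype). Filled points were called, and open points were not. The called genes lie between −3.25 and −2.01, and Cd274 is the 1 gene to the right of 0 on days 3 and 6.

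Of the CD28 and CTLA-4 ligands, Cd80 (Entrez 12519, chromosome 16, 38457430 to 38495958) was called on both days. It was at 57.9, 96.2 and 60.8 RPKM in WT and at 14.1, 12.1 and 10.5 RPKM in DKI on day 3. On day 6 its values were 55.4, 57.3 and 101 RPKM in WT and 16.4, 17.7 and 12.3 RPKM in DKI. The genotypes did not overlap on either day, and the means differed 5.85-fold and 4.61-fold. DKI differed by −2.43 ± 0.23 on the log2 scale on day 3 (SE, adjusted p = 0.00679, limma) and −2.09 ± 0.28 on day 6 (adjusted p = 0.0162). The day 6 call was lost without replicate 3 of DKI (adjusted p = 0.064).

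Cd86 (Entrez 12524, chromosome 16, 36568956 to 36666158) lies on the same chromosome as Cd80. On day 3 it was at 67.2, 81.7 and 38.5 RPKM in WT and 57.8, 23.8 and 16.6 RPKM in DKI, so the DKI library of replicate 1 fell among the WT values. On day 6 it was at 131, 93.9 and 183 RPKM in WT and 42.5, 31.4 and 23.8 RPKM in DKI, with no overlap. On the log2 scale DKI differed by −1.04 ± 0.49 on day 3 (adjusted p = 0.242, limma) and −2.01 ± 0.31 on day 6 (adjusted p = 0.0237). The day 6 call was lost without replicate 1 or 3 of WT (adjusted p = 0.0837 and 0.0719) or replicate 3 of DKI (adjusted p = 0.0758), and without the filter on low genes (adjusted p = 0.0517). The change of the genotype effect from day 3 to day 6 was not called for Cd86 or any of the other 9 genes, in a fit where 0% of all genes were called, 89 genes and 0 of the 10 had an unadjusted p under 0.05, and limma-voom called 0 of the 10.

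The ratio of Cd80 to Cd86 RPKM shows how unlike both genes were. In WT it was 0.194 to 0.533 on day 0, 0.861 to 1.58 on day 3 and 0.423 to 0.611 on day 6. In DKI it was 0.218 to 0.598 on day 0, 0.244 to 0.632 on day 3 and 0.386 to 0.564 on day 6. The 3 WT libraries of day 3 were thus the highest of the 18, and the DKI cultures stayed close to the span of the day 0 values.

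Of the PD-1 ligands, Pdcd1lg2 was called between the genotypes and Cd274 was not. Pdcd1lg2 (Entrez 58205) had 167, 112 and 188 RPKM in WT and 20.1, 28.7 and 71.9 RPKM in DKI on day 6, beside the day 3 values given above, and the genotypes did not overlap on either day. Its log2 difference was −2.36 ± 0.49 on day 3 (adjusted p = 0.0413, limma) and −2.10 ± 0.47 on day 6 (adjusted p = 0.0489). DKI replicate 3 was the highest DKI library on both days. The calls sat close to the threshold: without any 1 of the libraries other than DKI replicate 3 they were lost, with adjusted p between 0.0783 and 0.132 on day 3 and between 0.0696 and 0.164 on day 6. They were also lost in limma-voom on recovered reads (adjusted p = 0.0615 and 0.0635) and without the filter (0.0832 and 0.0927), and on day 6 with median centring (0.0697) or quantile normalization (0.0619).

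Cd274 (Entrez 60533), its neighbour, was not called on either day. It had 90.0, 119 and 141 RPKM in WT and 155, 80.9 and 252 RPKM in DKI on day 6, and the genotypes overlapped on both days. Its log2 difference was 0.69 ± 0.54 on day 3 (adjusted p = 0.461, limma) and 0.36 ± 0.42 on day 6 (adjusted p = 0.607). On day 3 the pairs disagreed: the DKI library was higher by 2.48 on the log2(RPKM + 1) scale in replicate 1, whose library names carry the earlier year, and the mean difference of replicates 2 and 3 was −0.21.

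Set against each other within a library, the PD-1 ligands separated the genotypes in culture. The Cd274 to Pdcd1lg2 ratio of RPKM values was 0.379, 0.916 and 0.489 in WT and 11.8, 6.54 and 1.40 in DKI on day 3. On day 6 it was 0.539, 1.06 and 0.751 in WT and 7.73, 2.82 and 3.51 in DKI. The genotypes did not overlap on either day, with a 2-sided exact permutation p of 0.1 on each, which is the smallest that 3 against 3 libraries allow. Pdcd1lg2 was itself lower in DKI without overlap, so the separation of the ratio in part restates that difference and is no further evidence. The permutation did not use the replicate numbers. On day 0 the ratio was 30.8 to 121 in WT and 41.6 to 72.6 in DKI (exact permutation p = 0.7), and it rested on 5 to 61 reads of Pdcd1lg2.

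**Figure D3:**
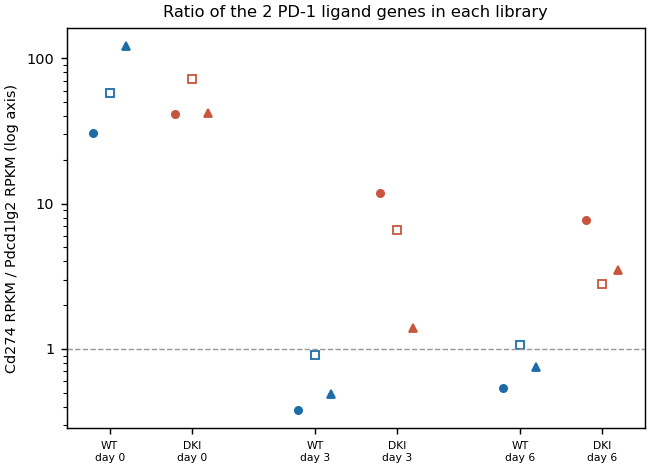
Ratio of Cd274 to Pdcd1lg2 RPKM (log axis) in each library, by genotype and day, with symbols for the replicates as in the plot of the 10 genes and a dashed line at 1. All DKI cultures lie above 1, between 1.40 and 11.8, and 5 of the 6 WT cultures lie below 1.

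Of the TNF family ligands, Tnfsf4 (Entrez 22164, chromosome 1, 161395438 to 161418206) was called lower in DKI. On day 6 it was at 13.4, 30.6 and 55.1 RPKM in WT and 6.00, 4.64 and 1.76 RPKM in DKI. The genotypes did not overlap on day 3 or on day 6, and their means differed 8.50-fold and 8.0-fold. The log2 difference was −2.68 ± 0.54 on day 3 (adjusted p = 0.0379, limma) and −2.62 ± 0.56 on day 6 (adjusted p = 0.0431). Leaving out any 1 of the 6 libraries ended the call on either day, where the adjusted p lay between 0.0579 and 0.0904 (day 3) or between 0.0575 and 0.123 (day 6). With the replicate number as a block the day 6 call was lost as well (adjusted p = 0.0756), and so it was with median centring (0.0517). On days 3 and 6 the calls were lost in limma-voom on recovered reads (adjusted p = 0.0689 and 0.0680) and without the filter on low genes (0.0808 and 0.0868).

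Tnfsf9 (Entrez 21950, chromosome 17, 57105287 to 57107758), the 4-1BB ligand, was not called, and its ranges overlapped on both days. It had 12.9, 4.69 and 9.58 RPKM in WT and 6.31, 5.20 and 9.08 RPKM in DKI on day 3, and 11.5, 5.23 and 4.83 RPKM in WT and 5.17, 6.25 and 7.16 RPKM in DKI on day 6. The log2 difference was −0.29 ± 0.36 (adjusted p = 0.646, limma) and −0.11 ± 0.32 (adjusted p = 0.847). The DKI library was the lower one in replicate 1 on both days and the higher one in replicates 2 and 3 on day 6.

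Icosl (Entrez 50723, chromosome 10, 78069368 to 78079525) had 18.4, 17.3 and 14.3 RPKM in WT and 9.49, 13.02 and 11.1 RPKM in DKI on day 6. The genotypes did not overlap, and DKI was lower in all 3 pairs, but the difference of −0.54 ± 0.17 was not called (adjusted p = 0.0968, limma). On day 3 it was −0.19 ± 0.15 (adjusted p = 0.452) and the ranges overlapped.

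Cd40 (Entrez 21939, chromosome 2, 165055614 to 165071654), the receptor for the ligand on activated T cells, was at 14.7, 34.6 and 13.8 RPKM in WT and 24.9, 5.98 and 5.29 RPKM in DKI on day 3. On day 6 it was at 18.8, 9.74 and 19.4 RPKM in WT and 11.4, 5.85 and 4.62 RPKM in DKI. DKI was lower in 2 of 3 pairs on day 3 and in 3 of 3 on day 6, and the ranges overlapped on both days. The log2 difference was −0.96 ± 0.62 (adjusted p = 0.374, limma) and −1.06 ± 0.38 (adjusted p = 0.126). The DKI library of replicate 1 on day 3, which was also the highest DKI library of that day for Cd80, Cd82, Cd83, Cd86 and Cd274, was above 2 of the 3 WT libraries. Without it the log2 difference of Cd40 on day 3 was −1.61, and the adjusted p was 0.0745.

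Cd83 (Entrez 12522, chromosome 13, 43785112 to 43803133), the marker of mature dendritic cells, had the widest gap between the genotypes on the log2(RPKM + 1) scale on both days among the 10, while by the ratio of means on day 6 Tnfsf4 (8.0-fold) was above Cd83 (7.72-fold). On day 3 it was at 48.8, 130 and 44.3 RPKM in WT and 8.50, 4.52 and 5.55 RPKM in DKI, and on day 6 at 158, 110 and 281 RPKM in WT and 24.6, 11.2 and 35.3 RPKM in DKI. Each DKI culture was below each DKI day 0 library. The gap was −3.25 ± 0.44 on the log2 scale on day 3 (adjusted p = 0.0135, limma) and −2.93 ± 0.49 on day 6 (adjusted p = 0.0269). The day 6 call was lost without replicate 1 or 3 of either genotype, with adjusted p from 0.0584 to 0.0921, or without the filter (0.0592).

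Cd82 (Entrez 12521, chromosome 2, 93419102 to 93462950), a tetraspanin of the membrane domains that hold MHC class II, was at 105, 94.4 and 77.7 RPKM in WT and 63.6, 31.3 and 36.3 RPKM in DKI on day 3. On day 6 it was at 93.0, 84.4 and 73.3 RPKM in WT and 53.8, 40.6 and 28.9 RPKM in DKI. The genotypes did not overlap on either day, and the means differed 2.11-fold and 2.03-fold. The log2 difference of −1.12 ± 0.29 on day 3 (adjusted p = 0.0694, limma) and −1.04 ± 0.25 on day 6 (adjusted p = 0.0544) was not called. With the replicate number as a block it was called on day 6 (adjusted p = 0.0419) and not on day 3 (adjusted p = 0.0625), and without replicate 1 of DKI it was called on day 3 (adjusted p = 0.0163). With all 18 libraries in 1 fit it was called on both days (adjusted p = 0.0132 and 0.0169).

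Between day 3 and day 6 none of the 10 genes was called in either genotype. Over all genes 0% were called in WT and 0% in DKI, while 722 and 93 genes had an unadjusted p under 0.05, among them 2 and 1 of the 10. Limma-voom called 0 of the 10 as well. The day 3 and day 6 ranges were apart for Cd86 and Icosl in WT and for Cd83 in DKI, or 2 and 1 of the 10 against 14.3% and 4.43% of all genes. The largest group means were reached on day 6 in WT for Cd83, Cd86, Pdcd1lg2 and Tnfsf4 and on day 3 in WT for Cd80, Cd82 and Cd40, and in each case the day 3 and day 6 ranges of WT overlapped, except that Cd86 was higher in all WT libraries of day 6 than in any of day 3. Cd274 had its largest mean in DKI on day 6, where its range overlapped those of all other cultures. Icosl and Tnfsf9 had theirs on day 0. For Cd80 the WT cultures stood above all other groups with no overlap and its day 0 range in DKI lay above that of DKI on day 3. The WT cultures of Cd82 stood above all its other groups as well.

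Across the 12 cultures, Pearson's r of log2(RPKM + 1) between the 5 genes called lower in DKI ran from 0.59 for Cd86 with Pdcd1lg2 to 0.94 for Cd80 with Tnfsf4. These values are a description and include the genotype difference for which the genes were called. Within DKI on day 3 the order of the libraries differed, with Cd80 highest in replicate 1, Tnfsf4 in replicate 2 and Pdcd1lg2 in replicate 3. Over the same 12 cultures r was 0.01 for Cd83 with Cd274, −0.25 for Cd274 with Pdcd1lg2 and −0.59 for Cd274 with Tnfsf9.

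Over all 18 libraries, each of the 10 genes was also matched to the 3 genes most like it among 10417 genes, by the same r. These libraries share day and genotype, so high values come easily. Cd80 was nearest to Pla1a (0.97), Map3k14 (0.95) and Fnbp1l (0.93). Pla1a lies 24.2 kb before Cd80 on chromosome 16 (38396117 to 38433191), and Map3k14 encodes the NF-kappaB-inducing kinase. Cd40 was nearest to Nfkb2 (0.86), Nfkbie (0.85) and Snx20 (0.82), and Cd86 to Nfkb2 (0.90), Crybg1 (0.89) and Mtf1 (0.88), so that a subunit of NF-kappaB led for both. Cd83 was nearest to Tspan13 (0.93), Ext1 (0.93) and Adora2a (0.93), and Cd82 to Vasp (0.92), Serpina3g (0.91) and Uqcc3 (0.90). Pdcd1lg2 was nearest to Tnfsf8 (0.98), the gene of CD30 ligand, and to Plekhb2 (0.98) and Ttc39b (0.98). Tnfsf4 was nearest to Vdr (0.98), the vitamin D receptor, and to Mpzl3 (0.97) and Zbtb46 (0.97), a transcription factor of dendritic cells. Cd274 was nearest to Tecpr1 (0.97), Nrp2 (0.97) and Sbf2 (0.96), and Icosl to Wdr48 (0.94), Zfp280d (0.93) and Rapgef6 (0.93). Tnfsf9 was nearest to Irs2 (0.89), Zfp277 (0.86) and Eif4ebp1 (0.84). Over the 12 cultures alone the values of the same genes were 0.67 to 0.82 for Cd274, 0.72 to 0.73 for Icosl, 0.84 to 0.89 for Pdcd1lg2, 0.91 to 0.95 for Tnfsf4, 0.80 to 0.86 for Tnfsf9 and 0.83 to 0.99 for the other 5 members.

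The receptors through which the 10 molecules act on T cells were also read in these cells. Of 8 such genes listed, 7 were found and 5 passed the filter on day 3, of which 2 were called lower and 1 higher in DKI. On day 6, 6 passed, with 3 lower and 1 higher. Over all genes 4.21% were called lower and 3.21% higher on day 3, and 4.82% and 2.72% on day 6, which is the background for this list and for those that follow. The medians of all genes were −0.11 and −0.17. All 10 members had a mean above 2 RPKM in both genotypes on these days. By contrast, Icos, Pdcd1, Cd70 and Tspan33 passed the filter only through WT, and Cd28 and Tnfsf14 only through DKI, that is, through the group where each was higher, so the counts that include them are given as a description, and no test is given for these 6 genes. Tnfrsf9, which encodes 4-1BB, the receptor of the Tnfsf9 product, was at 177, 227 and 87.6 RPKM in WT and 16.9, 4.55 and 1.04 RPKM in DKI on day 3, and at 543, 239 and 621 RPKM in WT and 15.7, 15.5 and 43.5 RPKM in DKI on day 6. Its log2 difference was −4.70 ± 0.79 (adjusted p = 0.0239, limma) and −4.23 ± 0.52 (adjusted p = 0.0136), beside a ligand that was not called. Icos, the receptor of the Icosl product, differed by −2.09 ± 0.40 on the log2 scale on day 3 and −2.36 ± 0.39 on day 6, at no more than 10.3 RPKM in any library. With the replicate number as a block Icos was not among those called on day 3. Pdcd1, which encodes PD-1 and was named after its values were seen, differed by −1.92 ± 0.32 on day 6.

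Cd28, the receptor of the CD80 and CD86 proteins, went the other way. It was at 0.854, 0.425 and 2.57 RPKM in WT and 16.7, 7.87 and 34.8 RPKM in DKI on day 3, and at 0.324, 1.16 and 1.66 RPKM in WT and 11.1, 8.21 and 26.0 RPKM in DKI on day 6. The log2 difference was 3.07 ± 0.57 and 2.88 ± 0.45, with no overlap on either day. The summed RPKM of 6 T cell markers was 1.52 to 1.75 in WT and 0.504, 3.19 and 0.766 in DKI on day 3. On day 6 it was 0.900 to 4.01 in WT and 0.773, 13.3 and 0.722 in DKI, where Cd3g made up 8.79 RPKM of replicate 2. The part of T cells in the Cd28 difference was not tested. Rgmb, a further partner of PD-L2, was not called on either day (0.28 ± 0.21 and −0.31 ± 0.20).

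**Figure D4:**
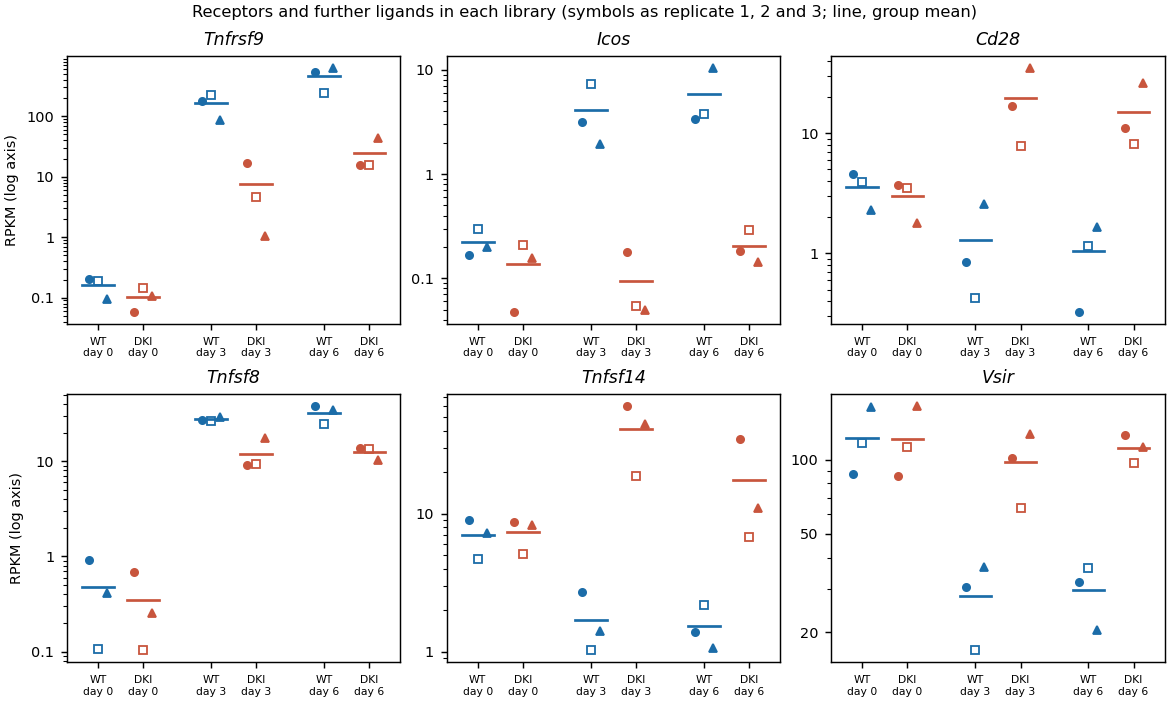
RPKM (log axis) of 3 receptors and 3 further ligands in each library, by genotype and day, with the line at the group mean of 3 libraries. Tnfrsf9, Icos and Tnfsf8 were lower and Cd28, Tnfsf14 and Vsir higher in all DKI libraries than in all WT libraries of days 3 and 6.

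Among 20 other B7 and TNF family ligands and their partners, 17 passed the filter on each of days 3 and 6. On day 3, 1 was called lower (4.21% of all genes) and 3 higher (3.21%) in DKI, and on day 6, 2 were lower (4.82%) and 3 higher (2.72%), with medians of −0.24 and 0.07 on the log2 scale. The lower ones were Tnfsf8 (−1.20 ± 0.25 on day 3, adjusted p = 0.0411, and −1.28 ± 0.21 on day 6, adjusted p = 0.0254, limma) and, on day 6, Cd70 (−1.45 ± 0.32), the CD27 ligand. The higher ones included Tnfsf14, which encodes LIGHT, a co-stimulatory TNF family ligand, with 2.70, 1.03 and 1.41 RPKM in WT and 59.8, 18.7 and 44.4 RPKM in DKI on day 3. Its log2 difference was 3.85 ± 0.45 on day 3 and 2.57 ± 0.55 on day 6. Vsir, which encodes VISTA, an inhibitory B7 family member, was at 30.4, 16.9 and 36.9 RPKM in WT and 102, 63.9 and 127 RPKM in DKI on day 3, after 87.2 to 164 RPKM in WT and 85.5 to 164 RPKM in DKI on day 0. It was higher in DKI by 1.78 ± 0.36 on day 3 (adjusted p = 0.0395) and 1.91 ± 0.24 on day 6 (adjusted p = 0.0149). The remaining one was Sirpa, named after its values were seen, which encodes the receptor of CD47 (1.30 ± 0.20 on day 3, adjusted p = 0.0194, and 1.25 ± 0.25 on day 6, adjusted p = 0.0373). With the replicate number as a block the call of Tnfsf8 on day 3 was lost (adjusted p = 0.0530). Cd70 and Tnfsf14 stand in the counts above as a description, and with the block the day 6 counts no longer held them.

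Of 16 genes of CD40 and TNF receptor signalling, all were fitted, and 2 on day 3 and 6 on day 6 were called lower in DKI, against 4.21% and 4.82% of all genes, with none higher. The medians were −0.65 and −1.23, beside −0.11 and −0.17 over all genes. Map3k14 was lower by −2.26 ± 0.38 on day 3 (adjusted p = 0.0239, limma) and −2.32 ± 0.28 on day 6 (adjusted p = 0.0136). Rel, the c-Rel subunit of NF-kappaB, was lower by −1.65 ± 0.26 (adjusted p = 0.0211) and −2.01 ± 0.36 (adjusted p = 0.0296). Cd40 itself was not called, as given above.

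Of 12 tetraspanins other than Cd82, 1 was called lower and 2 were called higher in DKI on each day (7.42% and 7.54% of all genes in either direction), with medians of 0.23 and 0.48. The lower one was Tspan33 (−2.45 ± 0.37 on day 3 and −2.88 ± 0.21 on day 6). Tspan4 (1.65 ± 0.23, adjusted p = 0.0147, limma, and 2.02 ± 0.33, adjusted p = 0.0263) and Tspan14 (0.94 ± 0.15, adjusted p = 0.0197, and 1.13 ± 0.24, adjusted p = 0.0433) were higher. The block ended the day 3 call of Tspan14 (adjusted p = 0.0530).

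Of 12 regulators of the B7 genes or of the CD86 protein at the surface, 11 were fitted on each of these days, and 1 was lower on day 3 and 2 on day 6 (4.21% and 4.82% of all genes), with none higher and medians of 0.03 and −0.09. Irf4, a transcription factor of dendritic cells, was at 82.8, 142 and 120 RPKM in WT and 4.26, 24.6 and 23.7 RPKM in DKI on day 3, and lower by −2.92 ± 0.63 (adjusted p = 0.0446, limma) and −2.66 ± 0.41 (adjusted p = 0.0235). The Irf4 call held in 6 of 8 alternatives and 1 of 6 omissions of 1 library on day 3 (highest adjusted p 0.142, limma). On day 6 it held in 7 of 8 and 3 of 6. Cmtm6, whose product keeps PD-L1 at the surface, was lower on day 6 (−1.09 ± 0.25, adjusted p = 0.0489), where Cd274 mRNA was not called. The Cmtm6 call held in 5 of 8 alternatives and 1 of 6 omissions of 1 library (highest adjusted p 0.159, limma). Marchf1, whose product removes CD86 from the surface, was not called (0.03 ± 0.35 and 0.11 ± 0.48).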

How the data were processed

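Per the labels and the study's methods, the authors made mRNA libraries (Kapa mRNA HyperPrep) from 18 samples, sequenced them single-end, aligned the reads to mm10 with Subread, counted them on RefSeq genes with featureCounts and deposited the counts as RPKM, that is, scaled by gene length and by mapped reads. Tool versions, strand setting and the treatment of reads with several matches are not given in the sources used here. All 18 value columns were used, and groups came from the sample titles. RefSeq symbols were found for 20082 of 20298 genes.

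Members were matched by symbol. The members and gene lists were chosen with earlier results of these data known, and the replicates are 3 independent experiments. Genes with a group mean above 2 RPKM in a compared group were fitted with limma 3.58.1 (lmFit, eBayes with trend) in R 4.3.3 on log2(RPKM + 1), which understates changes of low genes, and called at a Benjamini-Hochberg adjusted p under 0.05 over all genes fitted and a fold above 1.5. The authors' methods give these 2 thresholds and the RPKM filter for edgeR, with a further one on log2 CPM above 0 that was not applied here. Whole reads were recovered from the RPKM steps for 16974 of 17013 genes (99.8%, within 0.001 read), which gave the depth and, chosen after seeing the data, a limma-voom alternative. Exact intervals cover counting error only. Beside the 10 members, the genes named are Stat5a, Stat5b, for each member the 3 genes of highest r, from each list the 2 called genes of largest fold in each direction on days 3 and 6, and Rgmb, Marchf1 and Vsir. Pdcd1, Sirpa and the marker genes were named after their values were seen.

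Deviations from the group means correlated between same-numbered WT and DKI libraries on each day (r = 0.69 to 0.87 on day 0, 0.16 to 0.36 on day 3, 0.34 to 0.41 on day 6). The numbers thus paired the genotypes within a day. Same-numbered day 3 and day 6 libraries had r of 0.13 to 0.67 in WT and 0.32 to 0.73 in DKI. This pairing was not clear for replicate 3 of day 3, whose r with replicate 2 of day 6 was 0.13 in WT and 0.35 in DKI. The numbers did not pair day 0 with day 3. The pairing comes from the numbers in the titles. Alternatives were a pseudocount of 0.1, no filter, median centring, quantile normalization, a replicate block, all 18 libraries in 1 fit, no trend and leaving out each library. In data simulated for the day 3 comparison (9543 genes), 63.3% of 4-fold and 32.4% of 2-fold changes were called, and for day 6 (9719 genes) 80.7% and 37.4%. The simulated noise was normal and independent between genes, and for day 3 98 genes were changed 4-fold and 102 genes 2-fold. The simulations gave 102 (day 3) and 133 calls (day 6), against 723 and 742 in the data. These shares therefore need not hold for the data. Figures were made in Python 3.11.15 with matplotlib 3.10.9.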

Additional observations from a re-analysis of the deposited data

Results flagged for a closer look

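The difference between the genotype effects of day 0 and day 3 was called in the interaction fit of 12 libraries for Cd80 (−2.57 on the log2(RPKM + 1) scale), Cd83 (−3.03) and Tnfsf4 (−2.70), in each case with a lower DKI level on day 3 than day 0 would give. For Tnfsf4 the day 0 levels of both genotypes were near 0, so its value is nearly that of the day 3 difference alone (−2.68), and since it entered the fit through day 3 only it is given as a description. When 1 library was left out in turn, the call was lost in 10 of 12 cases for Cd80 (highest adjusted p 0.0924), and in 5 of 12 for Cd83 (0.0735).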

How the results depend on the processing

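On day 0, in the genotype comparison, and between day 3 and day 6, in both genotypes and in the change of the genotype effect, 0 of the 10 genes were called under every alternative. Between genotypes, the 4 calls of day 3 became 2 without the filter, 2 in limma-voom on recovered reads (chosen after seeing the data) and 2 to 3 without 1 library, and the 5 calls of day 6 became 1 without the filter, 3 with median centring, 3 in limma-voom and 1 to 3 without 1 library, with all log2 differences of the called genes still below 0. From day 0 to day 3, the count was 5 to 7 in WT and 4 to 7 in DKI without 1 library. The 3 calls of the change in genotype effect from day 0 to day 3 became 2 with a pseudocount of 0.1, with median centring or with all 18 libraries in 1 fit, 0 without the filter, 0 in limma-voom, 5 with the block within each day (also added later) and 0 to 3 without 1 library. These counts hold Tnfsf4 and in some settings Pdcd1lg2, whose place in them is a description. A replicate block gave 4 calls on day 3, 5 on day 6, 6 from day 0 to day 3 in WT, 7 in DKI and 4 for the change in genotype effect; between day 0 and day 3 the samples shared only a number (r = −0.20 to 0.18), and there the block added Cd80 and Cd86 in DKI and Cd82 for the change in genotype effect. On days 3 and 6 it changed no calls of the 10 genes other than those given in the report. Over all genes, the 723 calls of day 3 became 358 without the filter and 1359 with all 18 libraries in 1 fit, and the 742 of day 6 became 187 and 1573, and 459 in limma-voom. The 297 of the change in genotype effect became 89 in limma-voom and 1040 with the block within each day. With all 18 libraries in 1 fit, 6 genes were called on day 0 and 16 between day 3 and day 6 in WT. Directions turned for uncalled differences only: on day 6, Tnfsf9 was at 0.039 with median centring, 0.044 with quantile normalization and −0.31 to 0.25 without 1 library (above 0 without WT or DKI replicate 1), and Cd274 at −0.032 to 0.78 (below 0 without DKI replicate 3). From day 0 to day 3, without 1 library, Cd86 in WT ranged from −0.89 to 0.28, Cd40 in DKI from −0.87 to 0.15 and Cd82 in DKI from −0.17 to 0.33, and the change in genotype effect ranged from −0.37 to 0.052 for Icosl and from −0.98 to 0.15 for Tnfsf9. The limit of depth was the day 0 level of Tnfsf4 and Pdcd1lg2, at 1 to 61 reads. The 26 results of the genes that the naming rule took from the lists (without Pdcd1 and Sirpa) stayed called in 173 of 208 alternatives and in 66 of 155 omissions of 1 library, and none turned direction. They include Icos, Cd28, Cd70, Tnfsf14 and Tspan33, which passed the filter only through the group where each was higher. The tally is therefore a description. The cause of these changes was not tested.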
